A study of Rattus norvegicus with 8 samples.

Results

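A set of 10 amino acid transporter genes of the hepatocyte was followed in rat liver, and 7 of the 10 gave a value that varied between animals. The 10 genes were Slc38a2, Slc38a3, Slc38a4, Slc7a2, Slc3a1, Slc3a2, Slc43a1, Slc16a10, Slc1a2 and Slc1a4. They were chosen by name, with earlier results of these data known. Every probe set that the array annotation gave to one of these symbols alone was taken, which came to 11 probe sets of 31042. A probe set was counted as measured when its 8 values spanned at least 0.05 on the log2 scale, and 7 of the 11 did, against 4155 of the 31042 (13.4%).

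The study asked how the liver responds to dietary phosphorus. The HP group was 4 male Wistar rats fed an AIN-93G based diet with 1.2% phosphorus for 24 days, and the control group was 4 male Wistar rats fed the same base diet with 0.3% phosphorus for the same time. All rats were 8 weeks old at the end, had eaten the control diet during 7 days of acclimatization, and came from groups of 5 per diet. Each liver had its own Affymetrix GeneChip, so that every value belongs to 1 animal, and precision is limited by there being 4 arrays per diet.

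The hepatocyte takes up amino acids from portal blood, uses them for protein, glucose and urea synthesis, and returns some of them to the circulation. Uptake of small neutral amino acids with sodium is the work of system A carriers such as Slc38a2 and Slc38a4, and glutamine, asparagine and histidine cross through the system N carrier Slc38a3. Other carriers work by exchange or facilitated passage, and some of these reach the membrane only when bound to a heavy chain glycoprotein, Slc3a1 or Slc3a2. Several genes of this kind are known in mammalian cells as targets of ATF4, a transcription factor made when amino acids are short.

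Values are log2 expression values that the authors summarised with FARMS, a factor analysis that leaves a probe set almost constant when its probes share no signal. The medians of the 8 arrays were all 6.65, and those of the measured probe sets lay between 8.76 and 8.81. Among probe sets with a mean under 7, 1.27% were measured, against 70.1% of those with a mean of 11 or more. Defining hepatocyte genes were bright, with Alb at 14.5, Ttr at 14.0 and Serpina1 at 13.8, and all of these were nearly constant. Lymphocyte markers (0 of 4 listed genes measured) and bile duct markers (0 of 4) gave no measured value. Because the brightness of a probe set also depends on its probes, no level is compared between genes.

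The diets were compared by rank products, the method of the study, which ranks all 16 differences between an HP rat and a control rat, and by limma, a linear model that uses the spread between the rats of a diet. By rank products with a false discovery rate (FDR) under 0.05, 2 of the 7 measured transporters were lower in HP rats, Slc38a4 and Slc3a2, and 0 were higher. Over all 4155 measured probe sets, 12.1% were called lower and 8.5% higher by the same rule. By limma, 0 of the 7 had a Benjamini-Hochberg adjusted p under 0.05, as was so for all measured probe sets (0.0%), where the smallest adjusted p was 0.156. With an unadjusted limma p under 0.05, HP rats were lower for 2 of the 7 and higher for 0, against 7.29% lower and 5.37% higher over all. The same 2 genes were those whose 4 HP values all lay below the 4 control values, a pattern found in 4.07% of the measured probe sets, and 0 of the 7 lay wholly above, against 3.1% of all. Of the 7 differences, 6 were negative, with a median of -0.18 (log2), against 56.5% negative and a median of -0.02 over all measured probe sets. The transporters were chosen with earlier results of these data known, so these counts beside the shares over all are descriptions. In whole liver, fewer cells of a type and less RNA per cell cannot be told apart.

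**Figure D1:**
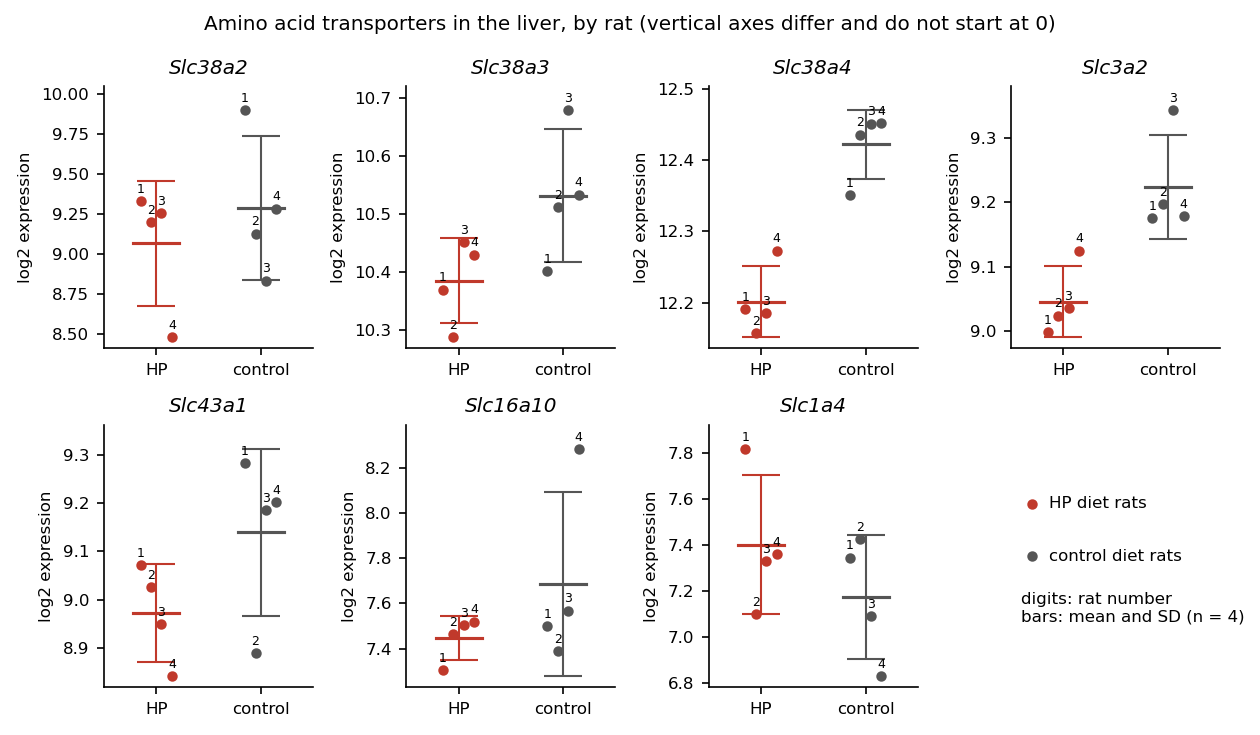
Log2 expression of the 7 measured transporters in each rat, HP diet on the left and control diet on the right of each panel, with the mean and SD (n = 4 each). The diets do not overlap for Slc38a4 and Slc3a2, and they overlap for the other 5 genes.

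The proximal promoters of Slc38a4 and Slc3a2 are shown because these genes separated the diets, and that of Slc1a4 because it was the measured transporter with a positive difference. Each run holds the 250 bases before the annotated start in RefSeq, build GRCr8, all 3 from the minus strand and written 5′ to 3′. They lie at chr7:130082170-130082419 (Slc38a4), chr1:215048065-215048314 (Slc3a2) and chr14:98761563-98761812 (Slc1a4), and capitals mark matches to the 5 motifs named in the next paragraph.
Slc38a4: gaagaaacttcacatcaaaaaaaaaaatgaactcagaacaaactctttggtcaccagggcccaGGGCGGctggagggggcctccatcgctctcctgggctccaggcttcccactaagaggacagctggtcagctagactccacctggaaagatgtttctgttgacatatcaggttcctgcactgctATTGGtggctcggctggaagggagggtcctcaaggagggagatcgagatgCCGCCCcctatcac
Slc3a2: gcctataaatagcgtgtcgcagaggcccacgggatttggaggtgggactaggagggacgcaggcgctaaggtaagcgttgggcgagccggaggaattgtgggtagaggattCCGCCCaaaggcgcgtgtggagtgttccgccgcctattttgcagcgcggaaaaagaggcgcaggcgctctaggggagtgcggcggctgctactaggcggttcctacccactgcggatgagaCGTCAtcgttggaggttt
Slc1a4: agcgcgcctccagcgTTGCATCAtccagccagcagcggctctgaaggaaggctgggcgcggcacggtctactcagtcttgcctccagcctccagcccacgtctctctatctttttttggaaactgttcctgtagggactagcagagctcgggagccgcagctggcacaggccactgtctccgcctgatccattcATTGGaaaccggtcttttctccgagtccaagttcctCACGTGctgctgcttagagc

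The 5 motifs were searched on both strands of these windows, which were found for 8 of the 10 genes (10 windows). TGATGNAA, the letters of the C/EBP-ATF composite element through which ATF4 acts, occurred in 3.40% of all 33469 rat windows and, among the transporters, in Slc1a4 alone, 235 to 228 bases before the start on the reverse strand. TGACG, the core of the cAMP response element, occurred in 18.2% of windows and in 2 transporters, Slc38a2 and Slc3a2 (18 to 14 bases before the start, reverse strand). CACGTG, an E-box, was found in 5.59% of windows and in Slc43a1 and Slc1a4. CCAAT matched 34.0% of windows and 3 transporters, among them Slc38a4 (64 to 60 bases before the start, reverse strand), and GGGCGG, a GC box, matched 30.5% of windows and 5 transporters. No motif of the 5 was shared by Slc38a4 and Slc3a2 apart from the GC box, which overlapped none of the other matches in the 3 windows shown. For Slc3a2 the table lists 2 starts, and the upstream one is shown. A match is a description of these letters and is not evidence of binding.

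Slc38a4 (probe set 1369074_at) encodes SNAT4, a system A carrier of neutral amino acids found mainly in liver. Its values were 12.19, 12.16, 12.19 and 12.27 in HP rats 1 to 4, against 12.35, 12.44, 12.45 and 12.45 in control rats 1 to 4. Every HP rat lay below every control rat, with a gap of 0.078 between the nearest pair, HP rat 4 and control rat 1. The means were 12.20 ± 0.05 in HP rats and 12.42 ± 0.05 in control rats (SD, n = 4 each). This gave a difference of -0.22 (SE 0.04, 95% interval -0.31 to -0.13, log2), or 0.858-fold (0.806 to 0.913). The rank products FDR was 0.0228. The limma adjusted p was 0.167, although the unadjusted p was the 8th smallest of the 4155 probe sets.

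Slc3a2 (1398771_at) encodes the heavy chain 4F2hc, also called CD98, which carries light chains of the L, y+L and xc- exchangers to the membrane. In HP rats the values were 9.00, 9.02, 9.04 and 9.13, against 9.18, 9.20, 9.34 and 9.18 in control rats. The diets again did not overlap, and 0.0499 separated HP rat 4 from control rat 1. Slc3a2 averaged 9.05 ± 0.06 in HP rats and 9.22 ± 0.08 in control rats (SD, n = 4 each), a difference of -0.18 (SE 0.06, 95% interval -0.31 to -0.04), or 0.884-fold. Its FDR was 0.0342 by rank products and its adjusted p 0.332 by limma.

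Both rank products calls were lost when any 1 control rat was left out. Both were kept when any 1 HP rat was left out. With 1 rat left out at a time, the difference lay between -0.24 and -0.21 for Slc38a4. For Slc3a2 it lay between -0.20 and -0.14. Leaving out control rat 1, 2, 3 or 4 left 0 transporters called lower, with the lowest FDR of the 7 at 0.0596, 0.0834, 0.104 and 0.0909 in that order, and both genes kept their direction. Ranking over the 4155 measured probe sets alone, in place of all probe sets of the array, also left 0 called (lowest FDR 0.653), and leaving out the dimmest 25% of probe sets left Slc38a4 alone (FDR 0.0419).

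The other system A carrier, Slc38a2 (1370286_at), encodes SNAT2, which is known to be induced when amino acids are scarce. It read 9.33, 9.20, 9.25 and 8.48 in HP rats and 9.90, 9.13, 8.83 and 9.28 in control rats. HP rat 4 was lower than every other rat and control rat 1 was higher than every other rat, and the remaining rats of both diets were mixed. The mean was 9.07 ± 0.39 in HP rats and 9.29 ± 0.45 in control rats (SD, n = 4 each). The difference of -0.22 (SE 0.25, 95% interval -0.78 to 0.34) was smaller than the spread between rats of a diet, with an adjusted p of 0.714 by limma and a rank products FDR of 0.0915. With 1 rat left out at a time it lay between -0.37, when control rat 3 was missing, and -0.02, when control rat 1 was missing, and it was -0.03 without HP rat 4.

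Slc38a3 (1370824_at) encodes SNAT3, the system N carrier through which hepatocytes take up or release glutamine. Its HP values of 10.37, 10.29, 10.45 and 10.43 stood against 10.40, 10.51, 10.68 and 10.53 in control rats. For Slc38a3, 3 control rats lay above all HP rats, and control rat 1 lay within the range of the HP rats. The difference was -0.15 (SE 0.07, 95% interval -0.30 to 0.01), from means of 10.38 ± 0.07 in HP rats and 10.53 ± 0.11 in control rats, and passed neither threshold (limma adjusted p = 0.402, FDR 0.083). Omitting 1 rat at a time, it lay between -0.19, with control rat 1 omitted, and -0.10, with control rat 3 omitted.

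Slc43a1 (1378196_at), which encodes LAT3, a facilitated carrier of branched-chain amino acids, methionine and phenylalanine, read 9.07, 9.03, 8.95 and 8.84 in HP rats and 9.28, 8.89, 9.19 and 9.20 in control rats. Again 3 control rats lay above all HP rats, while control rat 2 fell within their range. Means were 8.97 ± 0.10 in HP rats and 9.14 ± 0.17 in control rats, with a difference of -0.17 (SE 0.09, 95% interval -0.38 to 0.04, limma adjusted p = 0.467, FDR 0.078). Leaving out 1 rat at a time gave -0.25 (without control rat 2) to -0.12 (without control rat 1), and weighting the arrays gave -0.10.

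Slc16a10 (1370548_at) encodes TAT1, a uniporter of the aromatic amino acids tyrosine, tryptophan and phenylalanine. Values were 7.30, 7.46, 7.50 and 7.52 in HP rats and 7.50, 7.39, 7.57 and 8.28 in control rats. Control rat 4 stood 0.72 above the next rat, and the others of both diets lay within 0.26 of each other. The difference of -0.24 (SE 0.18, 95% interval -0.65 to 0.18, limma adjusted p = 0.567, FDR 0.0868) was -0.04 without control rat 4 and -0.34 without control rat 2, the extremes when 1 rat was left out. The means it came from were 7.45 ± 0.10 in HP rats and 7.68 ± 0.41 in control rats (SD, n = 4 each).

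Slc1a4 (1379785_at) encodes ASCT1, an exchanger of alanine, serine, cysteine and threonine, and was the single measured transporter with a higher mean in HP rats. It read 7.82, 7.10, 7.33 and 7.36 in HP rats and 7.34, 7.43, 7.09 and 6.83 in control rats. HP rat 1 was the highest and control rat 4 the lowest, with the other rats of both diets mixed. The mean was 7.40 ± 0.30 in HP rats and 7.17 ± 0.27 in control rats, a difference of 0.23 (SE 0.18, 95% interval -0.18 to 0.64, limma adjusted p = 0.571). Its FDR of 0.0564 missed the rank products threshold, and it was called higher without control rat 1 (FDR 0.0233) or without control rat 2 (FDR 0.0161). The difference was 0.09 when HP rat 1 was left out and 0.33 when HP rat 2 was.

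**Figure D2:**
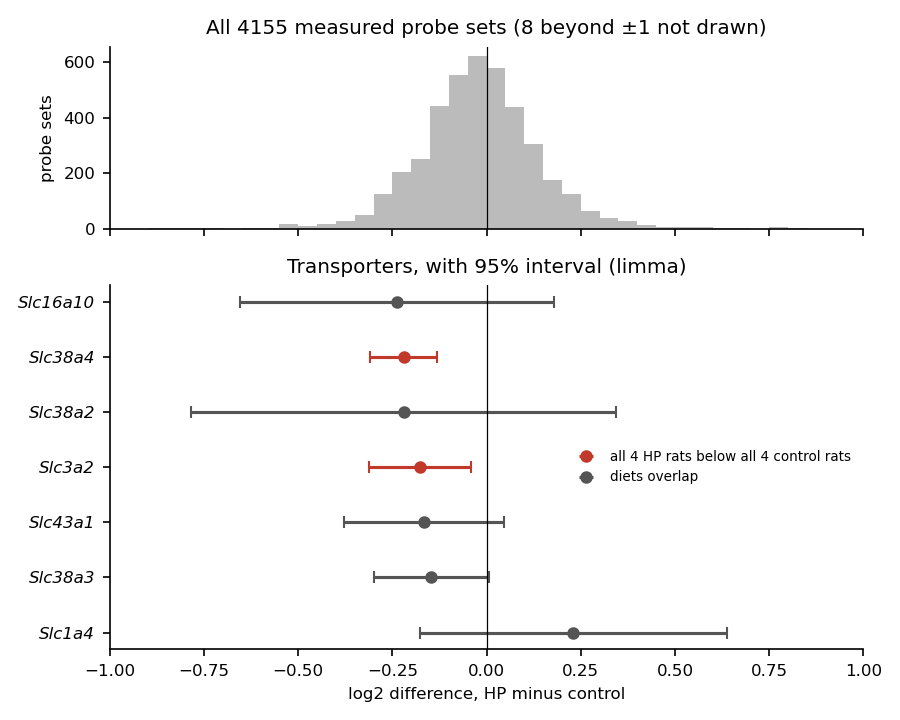
Difference between the diets (HP minus control, log2) for all measured probe sets as a histogram, and for the 7 transporters as points with 95% intervals from limma. The intervals of Slc38a4 and Slc3a2, the genes without overlap, lie below 0, and the other 5 include 0.

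The 7 differences lay between -0.24 and 0.23, with SEs from 0.04 to 0.25. Slc38a4 and Slc38a2 had the same difference of -0.22, but the SD within a diet was 0.05 for Slc38a4 in each diet and 0.39 in HP rats and 0.45 in control rats for Slc38a2. Among all 4155 differences, ordered with the most negative first, that of Slc16a10 stood at the 7.41 percentile, those of Slc38a4, Slc38a2, Slc3a2, Slc43a1 and Slc38a3 between the 9.0 and 18.1 percentiles, and that of Slc1a4 at the 94.7 percentile. No rat stood at one end for all 7 genes. HP rats 2 and 4 lay below the mean over all rats for 6 of the 7 transporters, HP rat 3 for 5 and HP rat 1 for 4, against 1 of the 7 for control rat 4, 2 for control rats 1 and 3, and 3 for control rat 2.

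For 3 transporters there was no measured probe set. Slc7a2, which encodes the carrier CAT2 of arginine, lysine and ornithine, stood at 6.53 with a span of 0.000744. Slc3a1, the heavy chain rBAT of the cystine and dibasic amino acid exchanger, stood at 6.37 with a span of 0.000223. Slc1a2, the glutamate carrier GLT-1 known from perivenous hepatocytes and astrocytes, had 2 probe sets at 6.43 and 6.28, with spans of 0.00113 and 0.0011. The smallest span of a measured transporter was 0.294, that of Slc38a4, so that none lay near the limit of 0.05. Whether these 3 genes differed between the diets could not be detected with these values.

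**Figure D3:**
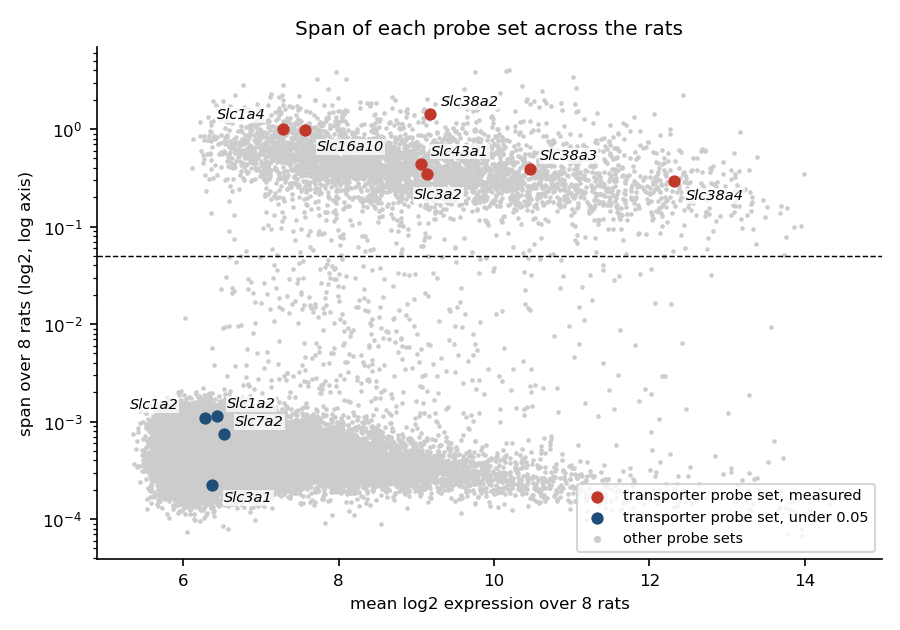
Span of the log2 values over the 8 rats (log axis) against the mean, for all probe sets, with the transporters marked and the limit of 0.05 dashed. The 7 measured transporter probe sets span 0.294 or more, and the 4 others span 0.00113 or less at means under 7.

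Most other amino acid carriers were not measured. Of 31 listed carriers outside the 10, 28 had a probe set and 2 were measured, Slc6a6 and Slc6a13, so that the light chains that pair with Slc3a2 (Slc7a5, Slc7a6, Slc7a7, Slc7a8, Slc7a10 and Slc7a11) gave no usable value. Slc6a6, the taurine transporter, read 10.36, 9.92, 9.72 and 9.67 in HP rats and 9.68, 10.33, 9.93 and 8.65 in control rats. These ranges overlapped, with control rat 4 far below the rest. The difference was 0.27 (SE 0.32), past the rank products threshold as higher (FDR 0.0488) with a limma adjusted p of 0.734.

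A second list held 24 enzymes that use the amino acids carried into the cell, in transamination, amino acid breakdown and the urea cycle. Of these 20 were measured and 17 had a negative difference, with a median of -0.19. By rank products 10 of the 20 were called lower, against 12.1% of all measured probe sets, and 0 higher, against 8.5%. The members of this list were chosen with their values known. By limma 0 were called. At an unadjusted limma p under 0.05, 9 were lower and 0 higher, against 7.29% and 5.37% of all measured probe sets. The largest differences were those of Sds, serine dehydratase, Tat, tyrosine aminotransferase, and Got1, the cytosolic aspartate aminotransferase.

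Sds read 8.82, 8.70, 8.85 and 8.97 in HP rats and 10.78, 9.19, 9.82 and 9.98 in control rats, without overlap, a difference of -1.11 (SE 0.28). Tat was at 8.37, 8.27, 8.73 and 8.19 in HP rats and at 9.09, 9.25, 9.72 and 8.75 in control rats, also without overlap, a difference of -0.81 (SE 0.20). Both had a limma adjusted p of 0.217. For Got1 the difference was -0.52 (SE 0.19), and control rat 2, at 10.28, lay within the range of the HP rats.

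Glutamine carried by Slc38a3 is split by liver glutaminase, the product of Gls2, and made by glutamine synthetase, the product of Glul. Gls2 read 10.89, 10.81, 10.84 and 10.96 in HP rats and 11.27, 11.21, 11.19 and 11.08 in control rats, without overlap, a difference of -0.31 (SE 0.05, FDR 0.00992, limma adjusted p = 0.167). Glul differed by -0.19 (SE 0.12, FDR 0.162) and passed neither threshold. The urea cycle genes Cps1 (-0.27, SE 0.06) and Ass1 (-0.24, SE 0.05) were called lower by rank products, and the diets did not overlap for either. A second Cps1 probe set, at a mean of 13.1, was nearly constant (span 0.000334) and so was not measured. Also called lower, but with overlap, were the alanine aminotransferase genes Gpt2 (-0.30, SE 0.13) and Gpt (-0.21, SE 0.14), the tryptophan dioxygenase gene Tdo2 (-0.19, SE 0.06) and the glycine decarboxylase gene Gldc (-0.20, SE 0.08).

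ATF4 and its targets were split between the directions. Of 16 listed genes, 10 were measured, 5 with a negative difference, and the median was 0.02, with 0 called by limma. Atf4 itself differed by 0.09 (SE 0.13) and Asns, the asparagine synthetase gene, by 0.08 (SE 0.18). In this list 2 genes were called higher by rank products and 0 lower, against 8.5% and 12.1% of all measured probe sets. Eif4ebp1, an inhibitor of cap-dependent translation, read 8.30, 8.42, 8.26 and 8.19 in HP rats and 8.11, 8.03, 7.88 and 7.98 in control rats, without overlap (difference 0.29, SE 0.08, FDR 0.00667, limma adjusted p = 0.245). The stress response gene Nupr1 differed by 0.24 (SE 0.14, FDR 0.0267) and overlapped between the diets.

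**Figure D4:**
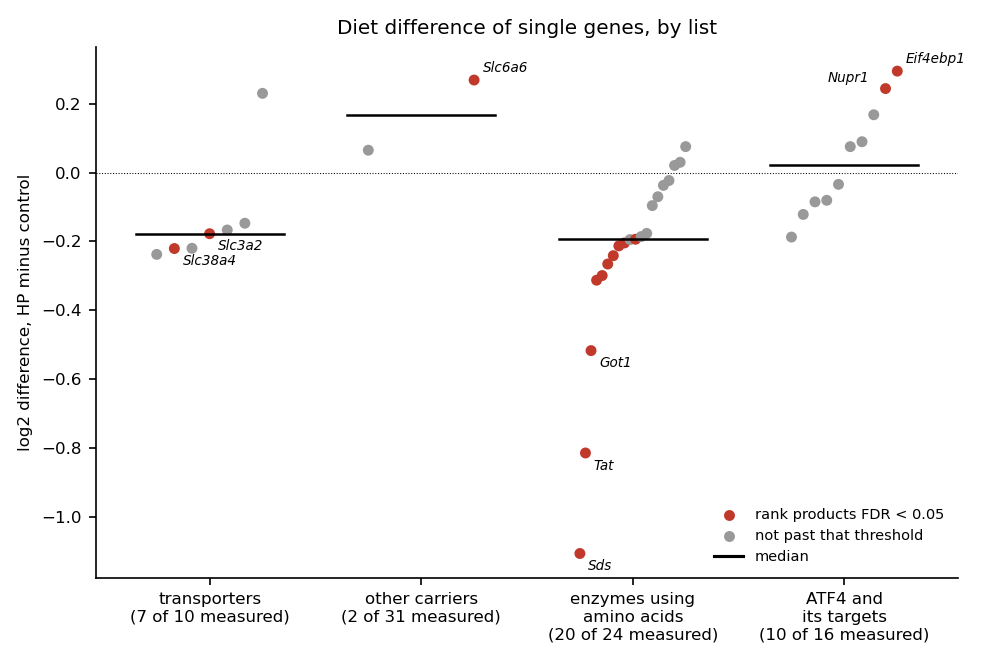
Difference between the diets (HP minus control, log2) of each measured gene in the transporter list and 3 related lists, with medians as lines and genes past the rank products threshold in red. The medians are -0.18 for transporters, 0.17 for other carriers, -0.19 for enzymes using amino acids and 0.02 for ATF4 and its targets.

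Markers of liver zones and of other cells moved in part with the diets. Over all measured probe sets, rank products called 12.1% lower and 8.5% higher. All 8 periportal markers were measured, 7 had a negative difference and 5 were called lower by rank products (Gls2, Cps1, Hal, Sds and Ass1). Gls2, Cps1, Sds, Ass1 and Arg1 are also in the enzyme list, as are the perivenous Glul and Oat, so their values are not separate. The mean level of the 8 ran from 11.16 to 11.27 in HP rats and from 11.41 to 11.59 in control rats. Sds had the largest difference (-1.11), while Arg1 (-0.10), Pck1 (-0.07) and Hsd17b13 (0.10) differed little. Of 8 perivenous markers 5 were measured, 3 with a negative difference (Glul, Oat and Cyp7a1) and 2 with a positive one (Cyp2e1, 0.02, and Cyp1a2, 0.10), with a median of -0.19 and 1 call, Cyp7a1 (lower). Of 6 endothelial markers 3 were measured and 2 were called higher, Stab2 and Kdr, at mean levels of 9.59 to 9.75 in HP rats and 9.41 to 9.54 in control rats. All 5 measured Kupffer cell markers of 8 had negative differences (median -0.15) with 0 calls, at 8.73 to 8.98 in HP rats and 8.71 to 9.15 in control rats, and 3 of 6 stellate cell markers were measured with 0 calls. The haemoglobin gene Hbb, the 1 measured red cell marker of 3, was called higher (0.24, SE 0.13, FDR 0.0294), and of 6 pancreas markers Cela1 alone was measured (0.19, SE 0.10). The hepatocyte genes Apoa1 and Fgb differed by 0.02 and 0.00. The part of these markers in the transporter differences was not tested.

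Over the 8 rats, the named genes whose values followed Slc38a4 most closely were Ero1a, an oxidase of disulfide bond formation (Pearson's r = 0.965), Hgd, homogentisate dioxygenase of tyrosine breakdown (r = 0.963), and Sult1e1, oestrogen sulfotransferase (r = 0.960). The most opposed were Fam167b (r = -0.970) and Cyp26b1, which oxidises retinoic acid (r = -0.965). All 8 rats enter from both diets, so r holds the diet difference of each gene. Within the 4 HP rats alone r was 0.948 for Ero1a, 0.993 for Hgd and 0.859 for Sult1e1, and within the 4 control rats it was 0.609, 0.722 and 0.777 for the same genes. Hgd, in the pathway that breaks down tyrosine after Tat, lay between 11.56 and 11.65 in HP rats and between 11.73 and 11.89 in control rats. These r were picked as the extremes among all measured probe sets with a name, and they are descriptions with no p.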

How the data were processed

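Liver RNA of 4 HP and 4 control rats was measured on 1 array each. The deposited values are log2 summaries that the authors made with FARMS in R 2.13.1 from the array files, and how the arrays were normalised was not given in the sources used here. No further normalization was applied. Genes were named from an annotation table, in which 20826 probe sets had a single symbol and 436 had several, and only probe sets with a single symbol were named. In lists, the measured probe set with the highest mean stood for a gene. Rank products (1000 permutations within arrays, all probe sets, FDR under 0.05) used numpy 2.4.6 in Python 3.11.15, and limma 3.58.1 in R 4.3.3 (trend, robust, two-sided, Benjamini-Hochberg adjusted p under 0.05) was fitted to 4155 probe sets spanning at least 0.05 (log2). Both were tested on simulated data. All 10 transporters are reported, with the called genes of each list and the genes most like the transporter of smallest limma p. Members and lists were chosen with earlier results of these data known. Rats were labelled as biological replicates, so that limma p-values measure the spread between animals. The rank products FDR rests on values permuted within each array, which does not use the spread between the rats of a diet. The alternatives were centred or quantile normalised arrays, other span and level filters, weights for arrays, a block for replicate number, plain empirical Bayes, gene means, rank products over measured probe sets, and leaving out each rat. Of the 24 listed enzymes, 1 was not analysed here.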

Additional observations from a re-analysis of the deposited data

Results flagged for a closer look

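In 14 groups of 4 rats (7 transporters in each diet), 3 had a rat far from the other rats of its diet by Dixon's criterion, which chance alone meets in about 1 group in 20. Slc38a2 was lowest in HP rat 4, at 8.48, with the nearest HP rat at 9.20. Slc38a4 was lowest among control rats in control rat 1, at 12.35, with the nearest at 12.44. Slc3a2 was highest among control rats in control rat 3, at 9.34, with the nearest at 9.20. Without HP rat 4 the Slc38a2 difference was -0.03, against -0.22 with all rats, and the rank products count of transporters called lower stayed at 2. Without control rat 1 that count was 0 (lowest FDR 0.0596), and without control rat 3 it was 0 (lowest FDR 0.104). The count was also 0 without control rat 2 or control rat 4, which were not flagged. Without control rat 1 the Slc38a4 difference was -0.24, against -0.22 with all rats. Without control rat 3 the Slc3a2 difference was -0.14, against -0.18 with all rats.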

How the results depend on the processing

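Over 17 alternatives for limma, the 119 recomputed transporter differences all kept their direction and none passed the threshold, with adjusted p between 0.0517 (Slc38a4 without control rat 1) and 0.975. The count of transporters called lower by rank products was 2, and it was 2 with centred and with quantile normalised arrays, 0 when ranked over measured probe sets only, and 1 (Slc38a4, FDR 0.0419) without the dimmest 25% of probe sets, and the cause was not tested. Leaving out each rat in turn gave 0 to 3 called lower (0 when any 1 control rat was left out, 3 without HP rat 1, where Slc38a2 was added), 0 to 1 called higher (Slc1a4 without control rat 1 or 2), and 2 to 3 below without overlap. The r of same-numbered deviations was -0.20 to 0.48. In each diet 1 of 4 rats, number 1, correlated best with its own number. These correlations cannot settle whether the replicate numbers stand for pairs. With the replicate block 0 transporters were called, at limma adjusted p of 0.310 for Slc38a4 and 0.383 for Slc3a2. At an unadjusted limma p under 0.05, 223 probe sets were higher and 303 lower, against 297 and 223 with centred arrays, which moved the median difference by 0.02, and 252 and 256 after quantile normalization. With 4 arrays per diet, differences within the spread of a diet could not be resolved.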
